A study of Caenorhabditis elegans with 609 samples.

Results

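NIC513 is a wild strain of the nematode Caenorhabditis elegans, and its 3 cultures were compared with 605 cultures of the other strains of the series. These were wild strains and N2, the laboratory-adapted reference strain, which the paper counts with them. Of all strains used, NIC513 included, 194 had 3 cultures and 13 had 2. The members were the columns whose titles begin with the strain name. NIC513 was chosen by the length of its terminal branch in a neighbour-joining tree built from the expression of protein-coding genes and pseudogenes. For those genes the counts, differences and standard errors below are a description, and the adjusted p serves only as a threshold for counting, not as a test, since the choice of NIC513 used the same values. Transposable elements and noncoding genes did not enter the tree and were tested. The single culture of JU2800 was left out.

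The study sequenced poly(A) RNA from whole animals of wild strains to map the genetic variation behind transcript levels. Every culture, in NIC513 and in the others, held young adult hermaphrodites kept untreated at 20 °C on NGMA plates, an agar medium for nematodes, with OP50 Escherichia coli as food. The groups thus differ by strain, and NIC513 stands for 1 natural genome. The 3 NIC513 cultures were in sequencing pools 01, 04 and 06, and 72, 88 and 93 other strains had a culture in the same pool. Beyond the pool, the titles give a year and further codes that cultures of different strains share. Neither the year nor these codes were used in the comparison.

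A young adult hermaphrodite makes oocytes that take up yolk lipoproteins secreted by the intestine, while sperm made earlier are stored. Levels of yolk, oocyte, sperm and cuticle genes therefore depend on the exact age of the animals. The C. elegans genome also carries very large families of F-box, MATH and BTB proteins, many of which bring substrates to ubiquitin ligases. Another large family is that of the nuclear hormone receptors, which bind DNA as transcription factors. Proteins tagged with ubiquitin are broken down by the proteasome, a complex of a 20S core and a 19S cap.

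Levels below are log2 of the normalized TPM (transcript abundance scaled to transcript length and library size) plus 0.5, with transcripts summed per gene. A log2 difference is NIC513 minus the mean of the other strain means, and it understates the change of low genes. A gene was counted as higher or lower where the limma adjusted p was under 0.05 and the log2 difference was at least 1 in size. A stricter description asked that all 3 cultures lie outside the range of the other strain means. The paper removed transcripts in the hyper-divergent regions of each strain, where poorly aligned reads could underestimate expression. Those transcripts were kept here, so a low or absent level can also stand for poor alignment, in NIC513 or in other strains.

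The libraries held between 15461168 and 280262722 estimated counts (median 28772489), and those of NIC513 held 41579449, 28615705 and 29440010 in cultures 1, 2 and 3. Ribosomal RNA took 34.6%, 6.49% and 31.2% of the NIC513 counts, against a median of 5.88% over all cultures, so culture 2 was near the middle of the series and cultures 1 and 3 were not. Culture 1 also had the highest share of small nuclear RNA (0.0234%, median 0.00027%) and the 2nd highest of small nucleolar RNA (0.0416%, median 0.0028%). Cultures 2 and 3 had at most 0.00034% and 0.0036% of these. The part of these shares in the results was not tested. Yolk, oocyte and sperm genes were measured in all 3 cultures. Of 3 male marker genes, only try-5 passed the expression rule, at 0.60, 0.13 and 0.93 TPM in cultures 1 to 3, or 0.14, −0.67 and 0.51 on the log2 scale. The other strains lay between −0.91 and 0.51 with a median of −0.55, and the NIC513 mean was the 2nd highest. The part of this marker in the results was not tested. Fewer cells of a type and less RNA per cell cannot be told apart in such whole-animal samples.

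The terminal branch of NIC513 was 74.4 units of expression distance long, the 7th longest of all strains, and 1.42 times the median branch of 52.4. Its neighbours in that order were CX11254 at 76.6 and NIC268 at 74.4 above it, and JU2526 at 71.8 and NIC256 at 70.6 below it. XZ1516 had the longest branch, at 89.7. The strains nearest to NIC513 were JU323 at a distance of 127.9, NIC274 at 128.9 and JU2519 at 130.5.

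The 3 cultures were unequally far from the other strains. Culture 1 was 212.6 units from the mean of the other strains, the 8th farthest of all cultures, and culture 3 was 165.5 units away, the 56th farthest. Culture 2 was at 128.7, close to the median of 134.8. Without culture 1 the branch was 70.7 and ranked 8th, and without culture 2 it was 88.1 and ranked 2nd.

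Among the 16377 genes of the tree, 2170 were higher in NIC513 (13.3%) and 334 were lower (2.04%). By adjusted p alone 5994 were higher (36.6%) and 2585 lower (15.8%). The median log2 difference of all these genes was 0.25, and it was 0.07 on raw TPM and 0.10 on CPM with TMM factors, a scaling that assumes most genes do not change. The higher genes made 86.7% of the called genes in the main scaling, 73.4% on raw TPM and 70.8% with TMM factors. In each of the 3 cultures, 195 genes lay above all other strain means (1.19%) and 23 below (0.14%). By that count above the range NIC513 ranked 4th of the 194 strains with 3 cultures, whose median was 4 and highest 1334. Without culture 2, 957 genes were above and 603 below, and without culture 3, 38 were below. By definition these 2 counts cannot fall when a NIC513 culture is left out. Against the 17 other strains with cultures in the same 3 pools 4593 genes were higher, and 663 with sperm, yolk and embryo scores regressed out of all genes, when 178 were lower.

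Culture 2 was the mildest of the 3. Of the 2170 higher genes, 2141 were at least 1 above the mean of the other strains in culture 1, 874 in culture 2 and 1801 in culture 3. Culture 2 was nonetheless above that mean for 2120 of them. Without culture 1 the counts were 1177 higher and 190 lower, without culture 2 545 were lower, and with culture 2 alone 461 were higher and 75 lower. With the ribosomal RNA share as a covariate 1514 were higher and 271 lower. For most of the groups below, the 15 other cultures with at least the ribosomal RNA share of culture 3 are set beside NIC513. The part of ribosomal RNA in the results was not tested.

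The 12 genes that stood farthest above all other strains were oac-6, fipr-24, dod-22, oac-20, kreg-1, B0024.4, tsp-1, gst-22, clc-19, F33H12.7, tsp-2 and fbxa-105. The largest gap to the next strain was that of oac-6, which encodes an acyltransferase-like membrane protein (chromosome V, 16302717 to 16306159, WBcel235). Its log2 level was 5.91, 3.90 and 5.76 in cultures 1 to 3, against −0.61 to 2.51 over the other strains with a median of 0.42. All 3 cultures lay above NIC501, the next strain, and the mean difference was 4.68 (SE 0.36). oac-20, of the same family, was at 5.49, 4.24 and 5.99, with the other strains between −0.75 and 3.04.

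The largest of these differences was in kreg-1 on the X chromosome (8709764 to 8710015). It was at 275.5, 94.8 and 374 TPM in the 3 cultures, or 8.11, 6.57 and 8.55 on the log2 scale, and the other strains lay between −0.75 and 5.68 with a median of 1.76. All 3 cultures lay above every other strain mean, and the difference of 5.86 (SE 0.69) was 58.1-fold. Single cultures of other strains can lie above their strain mean and are not covered by that range. The 5 next genes measured, up to position 8720758, were called higher with it.

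dod-22 and fipr-24 belong to families of infection-responsive genes. dod-22 was at 5.63, 4.31 and 6.03, above ECA812 at 3.06, the next strain. fipr-24, a fungus-induced protein related gene, was at 5.04, 3.87 and 6.37, and JU360 followed at 2.72. Both had low levels in most strains, with medians of 0.71 and 0.81.

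The tetraspanins tsp-1 (5.46, 3.52 and 5.21) and tsp-2 (5.62, 3.64 and 5.25) lie next to each other on chromosome III, and the highest other strains were at 2.72 and 2.99. The claudin-like gene clc-19 was at 7.27, 5.78 and 7.12, above JU2478 at 4.85. The glutathione S-transferase gene gst-22 was at 6.47, 4.37 and 6.24, with ECA812 at 3.82 and 32 other strains at 0 TPM. The F-box gene fbxa-105 was at 4.19, 2.76 and 4.10, and ECA812 followed at 1.93. In all 12 genes culture 2 was the lowest of the 3.

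**Figure D1:**
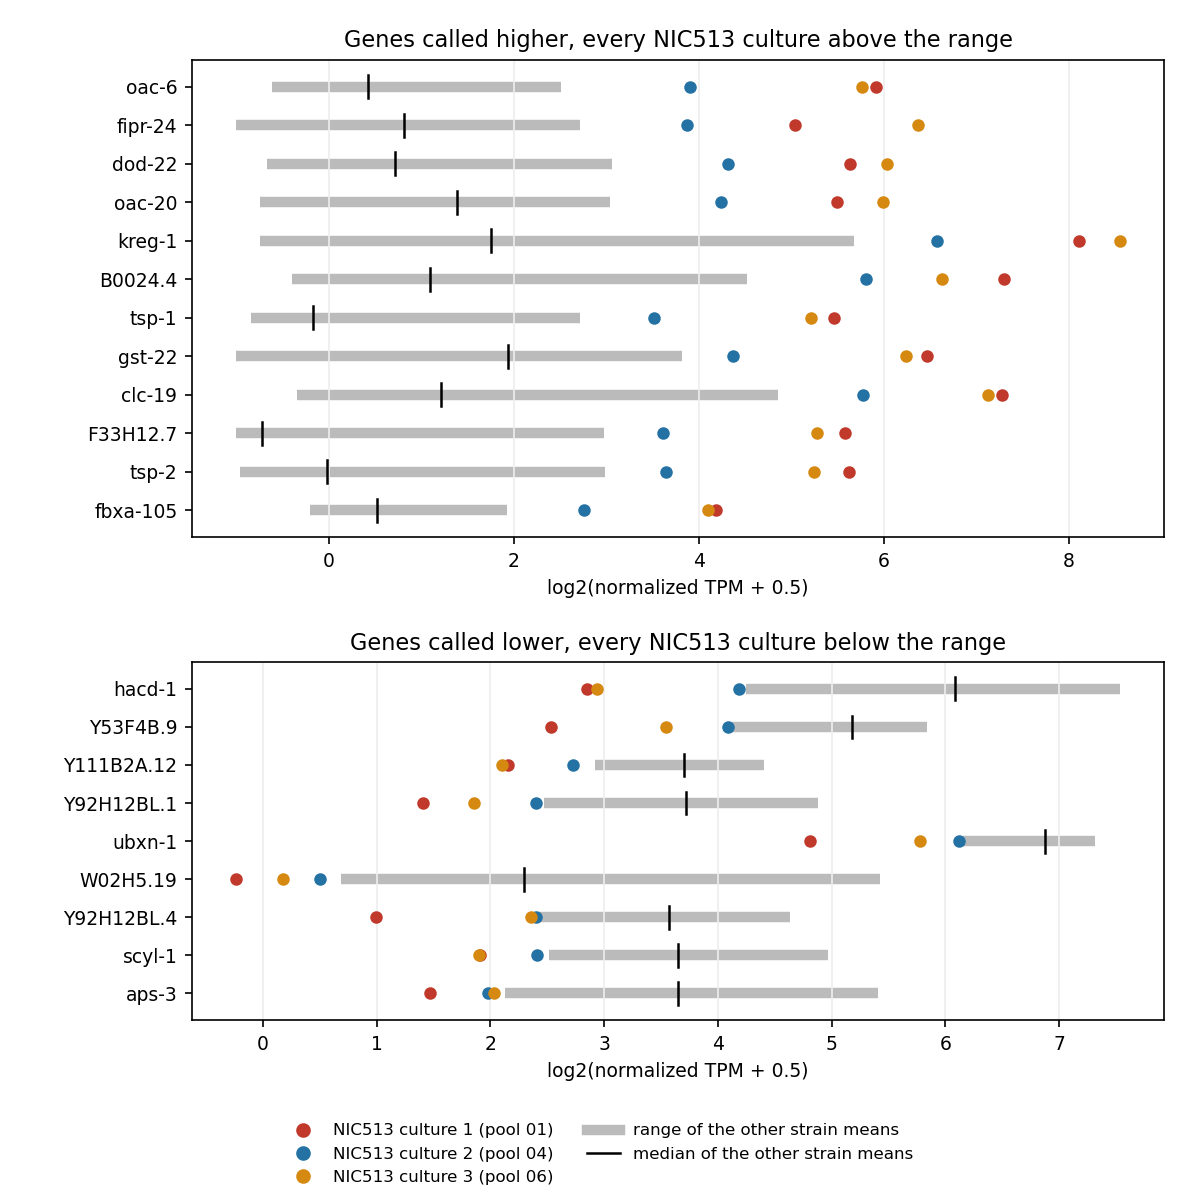
Log2 level (normalized TPM plus 0.5) of the named genes outside the range of the other strains. Coloured points are the 3 NIC513 cultures, grey bars the range of the other strain means and black lines their median. The cultures of oac-6 sit at 5.91, 3.90 and 5.76, above the highest other strain at 2.51, and those of hacd-1 at 2.85, 4.18 and 2.94, below the lowest at 4.25.

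As a mean over the 12 genes, the log2 level was 6.01, 4.36 and 6.04 in the NIC513 cultures, and the median of the 605 other cultures was 0.65. Of these 1, a JU2853 culture, was above culture 2, at 4.63, and none was above cultures 1 and 3. The JU2853 culture had 29.6% ribosomal RNA, a proteasome mean of 7.43 and a yolk mean of 8.90. The 15 other cultures with a ribosomal RNA share of at least 31.2% had a median of 0.44 and none over 2.62. Within the 3 sequencing pools 11 of the 12 genes were above every other strain, and for clc-19 1 other strain was above culture 2 in pool 04. The 12 genes were chosen by their gap above all other strain means. The comparisons with other cultures and within pools therefore largely follow from that choice and are no test. Among the 175 genes called higher and above all strains in every culture (1.07%), ECA812 was the next strain for 40 (22.9%), and it was the highest of the other strains for 2.27% of all tree genes. ECA812 had ribosomal RNA shares of 6.26%, 3.32% and 5.67%.

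Gene families with several members among the higher genes were also found near those named. Of 24 claudin-like clc genes, 12 were higher and 4 were above all other strains in every culture. Of 30 oac genes, 7 were higher, 4 of them above all strains. Of 19 tetraspanins 7 were higher, and all 7 idpc genes were higher, with a median difference of 2.32. These families were taken up after their values were seen, and 13.3% of all tree genes were higher.

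The genes below all other strains were fewer. hacd-1, which encodes a hydroxyacyl-CoA dehydrogenase (chromosome V, 1460369 to 1461613), was at 6.71, 17.6 and 7.16 TPM in cultures 1 to 3. The log2 levels of 2.85, 4.18 and 2.94 were all below KR314, the lowest other strain, at 4.25, and the difference was −2.70 (SE 0.30), 6.51-fold lower. ubxn-1, an adaptor of the CDC-48 segregase that unfolds ubiquitin-tagged proteins, was at 4.81, 6.12 and 5.78, and the other strains lay between 6.15 and 7.32. Here culture 2 was just under the range and culture 1 well under it.

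With these, 9 genes were called lower and below all other strains in every culture (0.055%). The others were Y53F4B.9, Y111B2A.12, Y92H12BL.1, Y92H12BL.4, W02H5.19, scyl-1, a member of the SCY1-like pseudokinases, and aps-3, the small subunit of the AP-3 adaptor complex. Their log2 differences lay between −2.15 and −1.38. Y111B2A.12 was at 2.16, 2.72 and 2.10, against 2.92 to 4.4 elsewhere, and scyl-1 at 1.91, 2.41 and 1.90, against 2.52 to 4.97. All 9 were also called on raw TPM and with TMM factors, but the place under every strain depended on the scaling. On raw TPM 2 of the 9 (aps-3 and W02H5.19) stayed below all strains, with TMM factors 3 (aps-3, hacd-1 and scyl-1), and with the developmental scores regressed out 2 (hacd-1 and ubxn-1), when 3 were called. The 12 higher genes all stayed above the range on raw TPM and with TMM factors. With the developmental scores regressed out 11 of them did, all but B0024.4, and all 12 were called.

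Some lower genes were shared with other strains. fbxa-210, an F-box gene, was listed at 0 TPM in all 3 cultures and also in 14 other strains, while the median strain was at 4.22 on the log2 scale. nspd-5 and nspc-20, of nematode-specific peptide families, were at 0.74 TPM or less and 1.67 TPM or less in NIC513, and 46 and 31 other strains were at 0. irg-8, an infection response gene, was at 2.79, 1.22 and 2.99, within a range of −0.98 to 8.25. The 3 NIC513 cultures were thus low together, and so were cultures of other strains.

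The proteasome was low in NIC513 by a small margin. All 33 subunits measured had a difference below 0, with a median of −0.29 against 0.25 over all tree genes. None reached a difference of 1, the size used for counting. The median was −0.52 on raw TPM, −0.59 with TMM factors and −0.27 in culture 2 alone.

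In 17 of the 33 subunits NIC513 had the lowest mean of all strains. In 7 all 3 cultures were below every other strain, as in 0.14% of all tree genes. These 7 were the core subunits pbs-2 and pbs-6, the cap ATPases rpt-1, rpt-3, rpt-4 and rpt-5 and the cap subunit rpn-9. rpt-3 was at 7.12, 7.05 and 7.01, and the other strains lay between 7.17 and 7.60. pbs-2 was at 7.29, 7.50 and 7.38, against 7.63 to 8.22. The largest difference was that of rpn-1, a scaffold of the cap, at −0.68 (SE 0.15), where culture 2 at 6.93 lay inside the range from 6.63 to 7.72.

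As a mean over the 33 subunits the 3 cultures were at 7.25, 7.34 and 7.30, and no other strain mean was below 7.41, that of ECA812. CX11254 at 7.43 and JU2570 at 7.45 came next, and the median strain was at 7.60. Of the 605 other cultures none was below culture 1 and 1 was below culture 2, and the 3 NIC513 cultures were below every other strain in their own pools. The 15 cultures with much ribosomal RNA lay between 7.36 and 7.77.

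The evenness of the cultures and their place at the bottom held only in the main scaling. On raw TPM the means were 6.57, 7.50 and 7.13, with a median strain at 7.64, and NIC513 was the 2nd lowest strain. With TMM factors the means, in log2 CPM, were 6.84, 7.26 and 7.11 with a median strain at 7.69, and NIC513 was again the 2nd lowest. None of the 7 subunits below every other strain kept that place in either of these scalings, and 5 kept it with the ribosomal RNA share as a covariate.

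**Figure D2:**
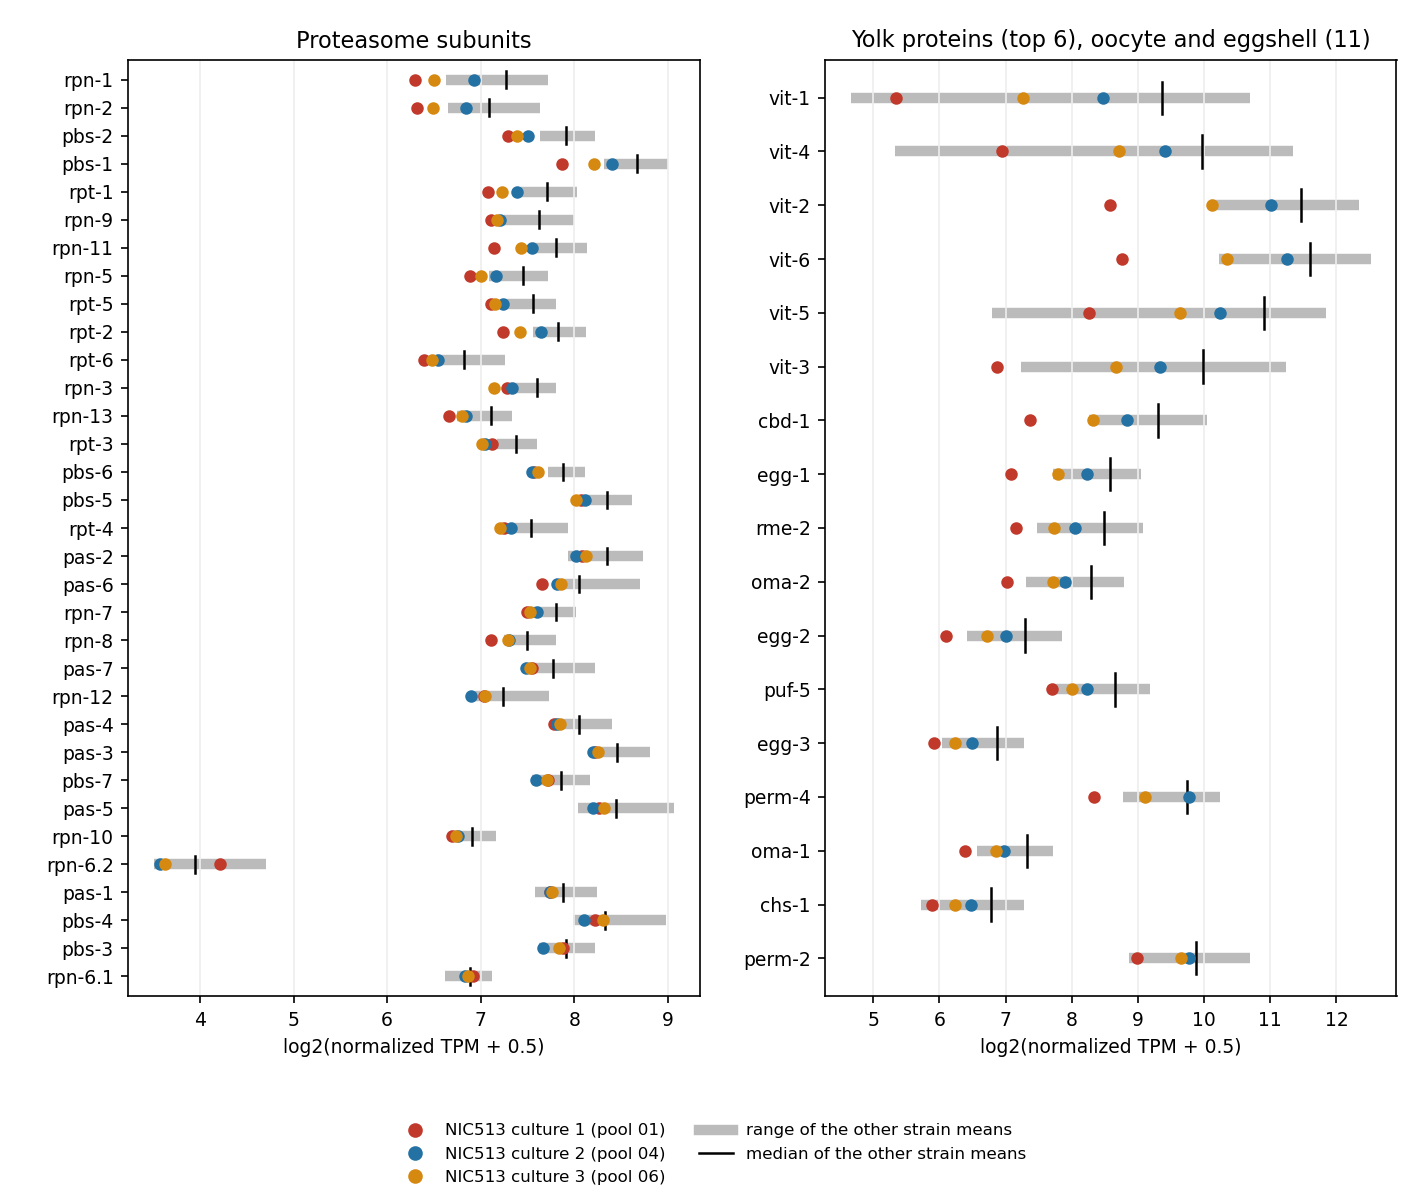
Log2 level (normalized TPM plus 0.5) of the proteasome subunits on the left and of the yolk, oocyte and eggshell genes on the right, with the NIC513 cultures as coloured points and the range and median of the other strain means as a grey bar and a black line. The cultures of rpt-3 lie together at 7.12, 7.05 and 7.01 under the range, and those of vit-2 spread over 8.57, 11.01 and 10.13.

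Yolk protein genes were lower as well, but with a wide spread among cultures. All 6 vit genes, which encode vitellogenins, were called lower (against 2.04% of all tree genes), with a median difference of −1.5. Their mean log2 level was 7.46, 9.95 and 9.13 in cultures 1 to 3, and 2, 78 and 11 of the other cultures were below these values. vit-2 was at 8.57, 11.01 and 10.13, where only culture 1 was clear of the other strains, whose lowest was 10.09. Without culture 1 only 1 of the 6 was called lower, and in culture 2 alone none, with a median of −0.48. In the 15 other cultures with much ribosomal RNA the mean lay between 7.80 and 12.4 with a median of 11.01.

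Oocyte and eggshell genes showed the same order of cultures. All 11 had differences below 0, from −1.08 to −0.40, and only cbd-1, an eggshell protein that binds chitin, passed the size of 1 (7.38, 8.83 and 8.32; other strains 8.27 to 10.05), and not without culture 1. rme-2, the yolk receptor of the oocyte, was at 7.16, 8.05 and 7.74, with a difference of −0.81 (SE 0.17). Over the 11 genes the median difference was −0.64, and −0.33 in culture 2 alone, and without culture 2 3 of them were called. Their mean was 7.09, 7.98 and 7.67, and the 15 cultures with much ribosomal RNA lay between 7.24 and 8.76. Few sperm genes were called, with 2 of 29 major sperm proteins higher (msp-50 and msp-19) and 1 of 28 spe genes, against 13.3% of all tree genes, and none without culture 1. Without culture 2 5 spe genes were higher, and without culture 3 1 major sperm protein. The mean of the major sperm proteins was 7.78, 6.42 and 6.99, with a median of 6.96 in the 15 cultures.

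Of 78 ribosomal protein genes 1 was lower, rps-2, at 9.48, 10.95 and 10.18, with a median difference of −0.25 over all 78. Without culture 2 3 were lower, without culture 3 2, and without culture 1 none. The mean was 10.66, 10.78 and 10.91, and the 15 cultures with much ribosomal RNA lay between 10.56 and 11.42. Of 6 heat shock genes measured, hsp-70, hsp-16.2 and hsp-16.1, which encode inducible chaperones, were lower, with differences from −1.66 to −1.28. Among all tree genes 2.04% were lower. hsp-70 was at 2.14, 3.22 and 1.78 within a range of 0.01 to 6.10, and the NIC513 mean was the 23rd lowest. Without culture 1 or culture 3 only 1 of the 6 was lower. Over the 6 genes the mean was 4.14, 4.59 and 4.04, with 3.17 to 6.96 in the 15 cultures. The hsp-16 genes are near-identical pairs, and their counts could be shared between copies.

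All 12 protein-coding genes of the mitochondrial genome were called higher, against 13.3% of all tree genes. Their differences lay between 1.01 and 1.90, with a median of 1.49. ND1, a subunit of respiratory complex I, was at 10.07, 8.53 and 9.53. Cultures 1 and 3 were above the other strains, which lay between 6.56 and 9.51, and culture 2 was among them. These genes took 1.60%, 0.768% and 1.11% of the counts, against a median of 0.461%. Only 2 of the 12 were higher without culture 1, none in culture 2 alone, and 3 with the ribosomal RNA share as a covariate. In the 15 other cultures with much ribosomal RNA the mean log2 level of the 12 genes lay between 6.08 and 10.51 with a median of 9.06, and NIC513 was within it at 10.14, 8.63 and 9.68.

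**Figure D3:**
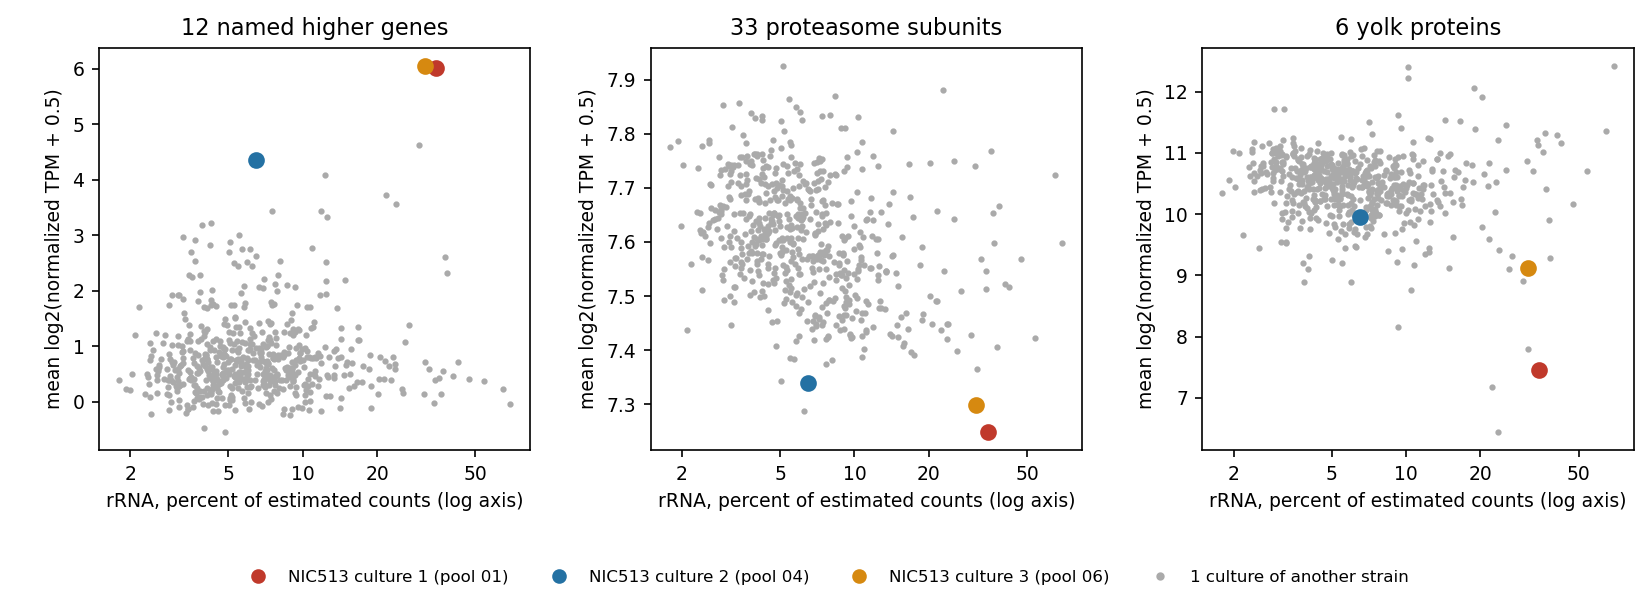
Mean log2 level (normalized TPM plus 0.5) of the 12 named higher genes, the 33 proteasome subunits and the 6 yolk genes in each culture, against its share of ribosomal RNA in percent on a log axis, with NIC513 in colour and cultures of other strains in grey. The 12 genes were chosen by their gap above all other strain means. For them NIC513 is at 6.01, 4.36 and 6.04, with 1 other culture above culture 2. For yolk, culture 2 at 9.95 is within the bulk.

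F-box, MATH and BTB genes were split by family. Of 76 MATH and BTB genes 26 were higher (34.2%, against 13.3% of all tree genes) and 2 lower, and the mean of the group was the highest of all strains. By name, 15 of 35 bath and 10 of 26 math genes were higher. Of 15 btb genes 1 was higher and 1 lower, with a median difference of −0.06. Of 123 F-box A genes 35 were higher (28.5%) and 2 lower, and this mean too was the highest. Of 114 F-box B and C genes only 4 were higher and 1 lower, with a median difference of −0.10, against 0.54 and 0.55 in the other groups.

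The count of MATH and BTB genes depended little on any 1 culture. In culture 2 alone 24 were higher and 3 lower, without culture 1 25 were higher, and 25 with the ribosomal RNA share as a covariate. The group mean was 2.06, 1.80 and 1.94, and the 15 cultures with much ribosomal RNA had none above 1.64. math-22 was at 4.19, 3.36 and 3.79, with a median of 1.09 elsewhere and 35 strains at 0 TPM. math-39 was at 3.42, 2.69 and 3.04, above every other strain mean, of which the highest was 2.56. bath-28 was at 4.32, 4.44 and 4.59. For this gene 85 other strains were at 0 TPM, and 49 had a higher mean than NIC513.

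All 26 higher MATH and BTB genes lie on chromosome II, where 64 of the group were measured, and none of the 12 elsewhere was higher. Between positions 1767811 and 2039388 of that chromosome 39 of 67 genes measured were higher (58.2%) and none lower, against 13.6% over the whole chromosome. The bounds were the outer ends of 3 runs of at least 5 neighbouring higher genes that hold math or bath genes. A high share within them therefore follows from how the region was chosen. The longest of these runs held 11 genes, from 2012998 to 2039388. MATH and BTB genes are close copies, and reads could be shared among them. Which of these genes lay in hyper-divergent regions of a strain was not examined, so poor alignment in some strains was not tested.

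F-box A genes varied more with the culture. fbxa-22 was at 3.57, 2.80 and 3.31 against a highest other strain mean of 3.21, and fbxa-24 at 5.02, 3.46 and 4.39 within a range of −0.84 to 5.58. Without culture 1 29 were higher. The group mean was 1.47, 0.93 and 1.30, and the highest of the 15 cultures with much ribosomal RNA, at 1.21, was above culture 2. Among the SKP1-related skr genes and the sdz genes 2 of 46 were higher and 3 lower, with skr-3 at 6.88, 5.95 and 6.46, and skr-13 at 0.35 TPM or less.

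Of 188 nuclear hormone receptors measured 62 were higher (33%, against 13.3% of all tree genes) and 1 lower, and 9 were above all other strains in every culture, as were 1.19% of all tree genes. The median difference was 0.67, and the group mean ranked 2nd. nhr-63 (3.74, 2.57 and 3.56) and nhr-50 (4.15, 2.75 and 4.01) lie close together on chromosome V, and the highest other strains were at 2.41 and 2.31. nhr-112 was at 4.38, 1.66 and 3.50, where culture 2 was inside the range that ended at 2.18. Without culture 1 45 were higher, and in culture 2 alone 15. Of the 15 other cultures with much ribosomal RNA none had a group mean above 1.78, and NIC513 was at 2.43, 1.83 and 2.15.

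Genes of the enzymes that modify foreign compounds were less uniform. Of 63 UDP-glucuronosyltransferases, which attach sugars to small molecules, 20 were higher (31.7%) and 2 lower, and 11 were higher without culture 1. Their mean was 2.76, 2.07 and 2.15, and the 15 cultures with much ribosomal RNA reached 2.37. ugt-44 was at 6.39, 4.90 and 5.99, above CX11254 at 4.66. Of 40 glutathione S-transferases 6 were higher (15%) and 1 lower (2.5%), near the shares of all tree genes. The lower one was gst-19, at 1.10 TPM or less. Without culture 1 4 were higher and 2 lower. Of 68 cytochrome P450 genes 9 were higher (13.2%), near the 13.3% of all tree genes. The 6 lower ones (8.82%) were above the 2.04% of all tree genes. cyp-13A5 was at 3.37, 2.35 and 3.18, and cyp-25A1 was lower by 1.78 on the log2 scale.

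**Figure D4:**
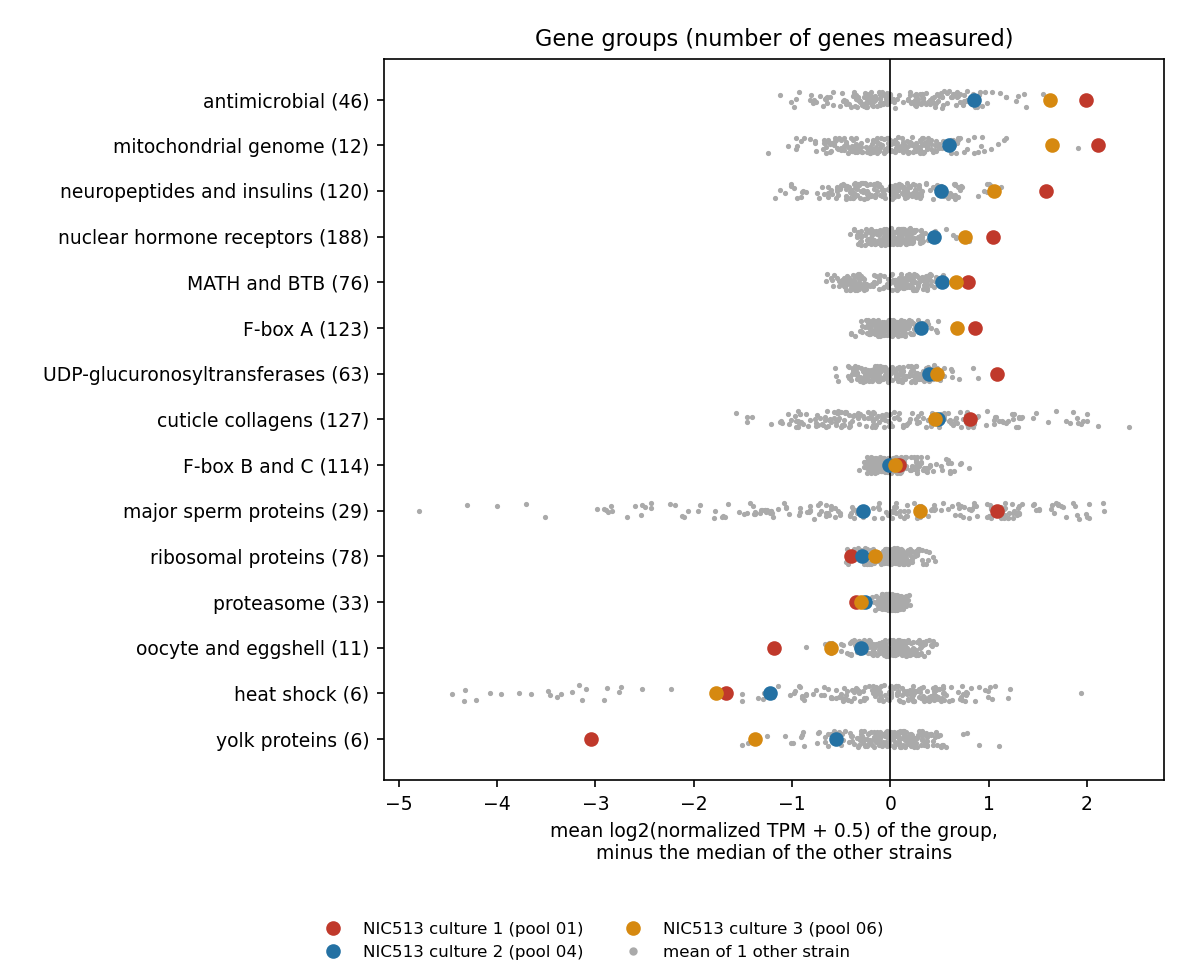
Mean log2 level of each gene group in the 3 NIC513 cultures (coloured) and in each other strain (grey), minus the median of the other strains, with the number of genes measured in brackets. In this scaling the 3 proteasome cultures lie together below the other strains, and the yolk cultures spread widely.

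Secreted immune peptides were among the groups with the largest shares. Of 46 antimicrobial genes 27 were higher (58.7%, against 13.3% of all tree genes) and 1 lower, with a median difference of 1.34. The share was 11 of 17 fipr genes, 4 of 6 caenacins (cnc), 5 of 5 in the cluster of nlp-29 to nlp-34 and 3 of 5 abf genes, but 4 of 13 lysozymes. nlp-29, an epidermal peptide induced by fungal infection, was at 8.35, 6.35 and 8.51, with 7.46 in the highest other strain, so culture 2 lay inside the range. lys-3, a lysozyme gene, was at 28.99, 2.87 and 26.2 TPM, and of the other strains 3 were above 1 TPM. Without culture 1 16 were higher, without culture 2 26, and in culture 2 alone 6. The group mean was 5.17, 4.03 and 4.81, and the 15 cultures with much ribosomal RNA reached 4.37, above culture 2.

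Genes named for responses to intracellular and bacterial pathogens were also counted. Of 25 pals genes measured 6 were higher (24%, against 13.3% of all tree genes) and 1 lower, led by pals-40 (2.15, 1.76 and 1.94), within the range of the other strains up to 2.70. Of 8 irg genes 3 were higher (37.5%) and 1 lower. irg-6 was at 2.26, 1.88 and 2.18, above ECA745 at 1.84, and irg-8 is given above. Of 138 C-type lectins, many of them secreted in the intestine, 23 were higher (16.7%) and 7 lower (5.07%), near the 13.3% of all tree genes for higher and above the 2.04% for lower. Their mean was 2.04, 1.75 and 1.76, and the 15 cultures with much ribosomal RNA reached 1.81. clec-67 was at 3.60, 3.20 and 3.24, and 2 other strains had higher means.

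Neuropeptide and insulin genes were higher in 64 of 120 (53.3%, against 13.3% of all tree genes), with 1 lower and a median difference of 1.03. The count was 20 of 30 FMRFamide-like flp genes, 33 of 66 nlp genes and 11 of 24 insulins. The 5 genes of the cluster nlp-29 to nlp-34, all higher, are counted both here and among the antimicrobial genes, so the 2 groups overlap. nlp-28 was at 8.39, 6.66 and 8.42, beside NIC268 at 7.81. It lies in 1 run of higher genes with nlp-29, nlp-30, nlp-31 and nlp-34 of that cluster. Without culture 1 17 of the 120 were higher, and in culture 2 alone none. None of 4 general neuron markers was called, and 1 was higher without culture 2 or culture 3. The mean of these markers was nonetheless 4.28, 3.87 and 3.86, within a range of 2.98 to 4.48 with a median of 3.59, and NIC513 ranked 12th. Their part in the neuropeptide levels was not tested. The 15 other cultures with much ribosomal RNA had neuropeptide means from 1.5 to 3.63 with a median of 2.95, and of the NIC513 cultures at 4.06, 2.99 and 3.53 only culture 1 was above them.

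Cuticle collagens and histones varied widely with the culture. Of 127 collagens 35 were higher (27.6%) and 18 lower (14.2%), against 13.3% and 2.04% of all tree genes. Without culture 1 only 2 were higher and 5 lower, and 29 were lower without culture 2. Their mean was 4.67, 4.35 and 4.32, and the 15 cultures with much ribosomal RNA lay between 2.26 and 4.94. col-60 was at 8.27, 4.09 and 5.46, inside the range up to 7.67 in cultures 2 and 3. Of 63 histone genes, near-identical copies among which reads could be shared, 12 were higher, and 24 without culture 2. The histone mean was 3.68, 2.38 and 3.44, against a median of 2.64 over the other cultures. In the 15 cultures with much ribosomal RNA it lay between 2.90 and 4.39 with a median of 3.56, so cultures 1 and 3 were among them. Chemoreceptors are mostly too low to measure in whole animals, and of 76 that passed 10 were higher (13.2%), near the 13.3% of all tree genes, with 8 without culture 1 and 15 without culture 2. srr-6 was at 4.87, 0.96 and 4.19, where culture 2 was inside the range that ended at 1.44.

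Some called genes lay beside each other. There were 117 runs of at least 3 neighbouring higher genes and 3 of lower genes. With 13.3% of all tree genes higher, some runs would occur anyway, and no comparison with such a number was made. Several runs hold members of 1 family, such as histones, among which reads could be shared. One of 8 genes on chromosome V, from 2222064 to 2242772, held 6 nuclear hormone receptor genes, and another, from 9616031 to 9629214, held pqn-63 and the genes idpc-3 to idpc-7. A run on the X chromosome, from 11047446 to 11066811, held clc-1 and the lipocalin-related genes lpr-3 to lpr-6. The share of higher genes ranged from 8.25% on chromosome I to 18.2% on chromosome V.

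Transposable elements were tested, since the tree did not use them. Of 104 consensus sequences 14 were higher (13.5%) and none lower by limma, at the same share as for the genes. By adjusted p alone 41 were higher (39.4%) and 4 lower (3.85%). The 14 were 9 of 60 DNA transposons, 3 of 25 LTR retrotransposons, 1 of 2 SINEs and 1 of 7 rolling-circle elements, and none of 10 LINEs passed. No element had all 3 cultures above every other strain mean. At an unadjusted p under 0.05 6 were lower, 0 of them by at least 1, and edgeR with all strains called 26 higher and 3 lower. Without culture 1 8 were higher, and in culture 2 alone 5.

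In 2 elements, SINE1 and IR3, NIC513 had the highest mean of all strains. SINE1 was at 4.74, 3.52 and 4.20, and the other strains lay between 0.79 and 3.77, so that cultures 1 and 3 were above the range and culture 2 inside it. The difference was 1.92 (SE 0.32, limma adjusted p = 6.4e-08), and in culture 2 alone it was 1.28 and did not pass. IR3, a PiggyBac DNA transposon named after its values were seen, was at 2.17, 1.68 and 1.95, with the other strains up to 1.72 and a difference of 1.58 (SE 0.24, limma adjusted p = 6.0e-09). The smallest adjusted p was that of Turmoil2, also named after its values were seen, with a difference of 1.48 (limma adjusted p = 7.0e-35), and 5 strains had a higher mean.

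The internal and terminal parts of CER17, an LTR retrotransposon of the Pao class, were also higher. The internal part, CER17_I, was at 3.82, 3.20 and 2.34, with a median of 1.33 elsewhere, a difference of 1.96 (SE 0.26, limma adjusted p = 1.3e-11) and 43 strains above NIC513. The terminal part, CER17_LTR, was at 3.54, 2.18 and 2.06 with a difference of 1.89 (limma adjusted p = 9.1e-08), and 94 strains were at 0 TPM. NIC513 was thus above the median strain for both parts and in front for neither. MIRAGE1, a DNA transposon, was at 4.14, 4.30 and 3.81 with a difference of 1.68 (limma adjusted p = 3.7e-07), and 75 strains had a higher mean.

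**Figure D5:**
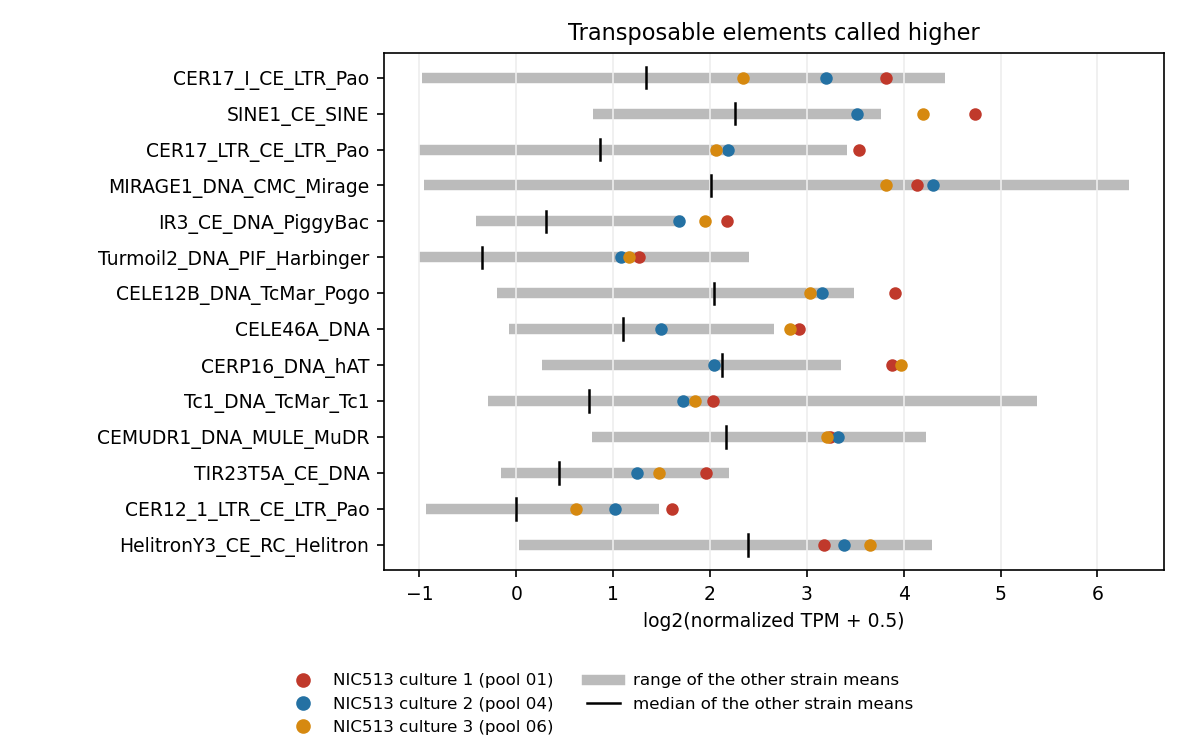
Log2 level (normalized TPM plus 0.5) of the 14 transposable elements called higher, with the 3 NIC513 cultures as points and the range and median of the other strain means in grey. SINE1 is at 4.74, 3.52 and 4.20 with the other strains up to 3.77, and MIRAGE1 at 4.14, 4.30 and 3.81 within the spread of the others.

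Noncoding genes other than the small RNA classes were tested in the same way. Of 246 genes 60 were higher (24.4%) and 14 lower (5.69%) by limma, and 4 were above all other strains in every culture (1.63%). The median difference was 0.43. Without culture 1 48 were called in either direction, and in culture 2 alone 12, against 74 (30.1%) in all.

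C09G1.7 and F46A8.13 were alike in all cultures. C09G1.7 was at 8.53, 8.13 and 8.48, with a median of 6.72 and a highest strain of 9.58, a difference of 2.94 (SE 0.62, limma adjusted p = 2.2e-05). F46A8.13 was at 5.31, 5.21 and 5.16, with a median of 2.48 and only ECA777 higher, a difference of 2.88 (limma adjusted p = 9.3e-06). The 3 cultures lay close together in both genes.

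C18C4.17 and F31C3.16 had larger differences but varied with the culture. C18C4.17 was at 8.83, 2.85 and 4.50, a difference of 3.24 (limma adjusted p = 0.00058) that became 1.52 without culture 1. F31C3.16 was at 7.85, 4.09 and 7.05, a difference of 3.11 (limma adjusted p = 0.0015) that became 2.35 without culture 1 and 0.95 with the ribosomal RNA share as a covariate. C18C4.17 was thus far higher in culture 1 than in the others, and F31C3.16 was high in cultures 1 and 3. Neither passed the threshold in those alternatives.

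The lower noncoding genes were near or at 0. C02B4.8, Y40C7B.9 and Y48C3A.1 were listed at 0 TPM in all 3 cultures, and so were 6, 46 and 67 of the other strains. T27A10.8 was at 0, 0 and 1.42 TPM, with 34 other strains at 0. All 4 passed limma's threshold, and none passed edgeR's test on the estimated counts with all strains.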

How the data were processed

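The authors cut adapters with fastp 0.20.0 and quantified reads with kallisto 0.44.0 against transcriptomes made for each strain from the WormBase WS276 annotation and that strain's variants, with consensus sequences of transposable elements added. They deposited estimated counts and raw TPM for 65173 transcripts and 157 elements. Groups came from the strain in the titles, and replicate numbers are only accession order.

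The single culture of JU2800 was left out. Transcripts were matched to WBcel235 genes and summed, without the paper's removal of transcripts in hyper-divergent regions. TPM values were scaled by median-of-ratio factors, and a feature was fitted where at least 5 normalized counts were found in all cultures of at least 10 strains (16789 features). Log2 of normalized TPM plus 0.5 was fitted by strain with limma 3.58.1 (trend, robust, R 4.3.3), contrasting NIC513 with the mean of the other strains, with Benjamini-Hochberg adjustment over all features. Estimated counts were rounded for edgeR 4.0.16, an alternative, as were pseudocounts, filters, raw TPM, pools and left-out cultures. The tree used neighbour joining (ape 5.8.1). Simulated data gave recovery of 93% at a log2 size of 1.5 and 96% at 2, with 3 unchanged features called. The simulated noise was independent between features and had the same spread in every strain. It therefore does not show how calls behave where genes shift together within a culture. P-values measure the spread between cultures.

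Named genes were the first 12 called higher and the first 12 called lower (9 were found) outside the range of all other strains by the gap, 6 further lower by difference, 4 elements and 4 noncoding genes in each direction by difference, and up to 4 called in each gene group. Member families taken up after their values were seen (oac, clc, tsp, idpc) are named as such. The members and the gene lists were chosen with earlier results of these data known. Apart from their shares of the counts, small RNA classes were left out of the text, since the libraries were made from poly(A) RNA.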

Additional observations from a re-analysis of the deposited data

How the results depend on the processing

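The counts of genes depended on which cultures and strains were used. Higher genes, 2170 as reported, were 4593 against the 17 other strains of the same 3 pools, 4974 with edgeR on those strains, 663 with sperm, yolk and embryo scores regressed out, 461 in culture 2 alone, 795 where each culture had to differ by 1, 5994 by adjusted p alone and 1423 relative to the median of all genes. Leaving out 1 NIC513 culture gave 1177 to 3085. Lower genes, 334 as reported, were 540 on raw TPM, 930 with TMM factors, 512 with a pseudocount of 0.1, 178 with the scores regressed out, 75 in culture 2 alone, 99 with each culture, 2585 by adjusted p alone, 629 relative to the median, 1313 with edgeR on the matched strains and 594 with edgeR on all. Leaving out 1 NIC513 culture gave 190 to 545.

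Genes above all strains in every culture were 4425 against the matched strains, and genes below were 1134 there, 3 on raw TPM and 89 in culture 2 alone. Of the 23 genes below, 2 stayed so on raw TPM, 3 with TMM factors and 4 with the scores regressed out. Leaving out 1 NIC513 culture gave 199 to 957 above and 27 to 603 below. With fewer NIC513 cultures the condition is easier to meet, and a range over 17 other strains is narrower. By definition the counts cannot fall in these settings. Leaving out replicates of the other strains gave 104 to 171 above and 8, 4 and 7 below.

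Transposable elements called were 8 on raw TPM, 24 with TMM factors, 27 and 9 with pseudocounts of 0.1 and 1, 6 with the scores regressed out, 5 in culture 2 alone, 9 with the ribosomal RNA covariate, 8 with each culture, 45 by adjusted p alone, 9 relative to the median, and 30 and 29 with edgeR on matched and all strains. Leaving out 1 NIC513 culture gave 8 to 20. Noncoding genes were 343 with every feature above 0 fitted, 43 with the scores regressed out, 12 in culture 2 alone, 40 with each culture and 116 by adjusted p alone. Leaving out 1 NIC513 culture gave 48 to 91.

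The branch was 1.65 times the median with distances over gene sums, and 1.26 times with the cultures kept by the paper's distance rule. Leaving out 1 NIC513 culture gave branch ratios of 1.35 to 1.68 and ratios of the mean distance of 1.16 to 1.41. Within pool 01 the yolk score was −2.98, and the early embryo score was −0.11, −0.48 and −0.19 in the 3 pools. With the scores regressed out the difference of vit-4 was 0.014. This gene is itself part of the yolk score, so the loss of its difference follows from the construction. The cause of the other shifts, beyond those that follow from a definition, was not tested.

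With the pool as a replicate block 2094 genes were higher and 319 lower, with 13 elements and 75 noncoding genes, and 1 of the 113 named calls, rps-2, was lost. Replicate numbers do not pair cultures.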

Other observations

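Genes that most strains do not express were outside the fit and have no test. Of these, 111 protein-coding genes and pseudogenes reached the count minimum in all 3 NIC513 cultures while fewer than 10 strains did so, and in 16 every NIC513 culture was above all other strain means. They passed through NIC513 itself, so their number is no measure of a difference. The claudin-like gene clc-12, for which NIC513 was the only strain to pass, was at 18.4, 1.53 and 12.7 TPM in cultures 1 to 3, and the highest other strain, ECA812, was at 0.31 on the log2 scale. scl-25, an SCP-like extracellular protein gene, was even across cultures at 7.59, 6.36 and 5.33 TPM. C01G10.5 was at 12.2, 5.53 and 11.5 TPM, above ECA363. W08E12.2, C01G10.17 and srlf-36 were high in cultures 1 and 3, at 6.45 TPM or more, and at 2.67 TPM or less in culture 2, within the range of the other strains.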
